A study of Mus musculus with 8 samples.

Results

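The lysosomal module comprised 52 mouse genes chosen by name and function, with earlier results of these data known. It holds the subunits of the lysosomal proton pump, the acid hydrolases of the lysosome, the main proteins of its membrane and 2 regulators. All 52 were among the 22430 genes of the deposited count table, and all 52 were among the 16730 genes that passed the low-count filter and were tested. The samples were brain hemispheres of male C57Bl/6JRj mice, labelled as whole brain, from 4 animals aged 6 months (6m) and 4 animals aged 24 months (24m). The labels name no transgene, deletion or treatment, and each library came from a separate animal. Poly(A)-selected, directional libraries were read as pairs, and the authors counted reads per gene. In homogenised tissue, fewer cells of a type and less RNA per cell cannot be told apart.

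The vacuolar ATPase is the machine that acidifies the lysosome. Its cytosolic V1 sector hydrolyses ATP and turns a rotor, and its membrane-embedded V0 sector passes protons through a ring of small proteolipids. The acid activates cathepsins, glycosidases and lipases that break down proteins, glycans and lipids, and the products leave through membrane transporters such as the cholesterol exporter Npc1. The transcription factor Tfeb and its relatives drive many of these genes through a short promoter element, and inherited loss of single lysosomal enzymes causes neuronal storage diseases.

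That promoter element contains the palindrome CACGTG, and because it is the sequence the Tfeb family is known to bind, the bases from 250 before to 50 after the annotated transcription start of the canonical transcript were searched for it on both strands. The 6 letters CACGTG were found in 13 of the 52 members (25%) and in 9.29% of 16677 tested genes with an annotated start. The longer form TCACGTG, which contains the first motif, was found on one or the other strand in 11 members (21.2%), in 5.04% of the tested genes and in 20.3% of 128 tested genes of the wider lysosomal pathway. Each of the 11 members is shown by the 30 bases around the copy nearest to its start, written 5′ to 3′ on the strand of the gene from the GRCm39 genome, with the motif or its reverse complement CACGTGA in capitals.
Atp6v0b (chr4:117744545-117744574, minus strand): gtgcgcgggggTCACGTGgggtcggcgcat
Atp6v0e (chr17:26895361-26895390, plus strand): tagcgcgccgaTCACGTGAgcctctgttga
Atp6v1h (chr1:5153300-5153329, plus strand): ctcagctgcggTCACGTGcggctgctcacg
Ctsb (chr14:63359879-63359908, plus strand): gcggtcaagcaTCACGTGAcgaatcagccc
Ctsd (chr7:141941792-141941821, minus strand): tcttccttccccCACGTGAcctgtatccag
Gaa (chr11:119158637-119158666, plus strand): tttctgtgcgaTCACGTGtttgactctgac
Gla (chrX:133501931-133501960, minus strand): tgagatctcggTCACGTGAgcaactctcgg
Glb1 (chr9:114230086-114230115, plus strand): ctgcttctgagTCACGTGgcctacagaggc
Naglu (chr11:100960835-100960864, plus strand): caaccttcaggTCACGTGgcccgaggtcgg
Lamp1 (chr8:13209104-13209133, plus strand): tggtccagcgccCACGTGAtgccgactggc
Mcoln1 (chr8:3550436-3550465, plus strand): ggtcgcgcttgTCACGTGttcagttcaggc
All copies lay within 78 bases of the start, Lamp1 held 4 of them, and Atp6v0b, Atp6v1h, Gla and Mcoln1 held 2 each. Atp6v1a and Ctsf held CACGTG without the flanking T. Of the 11 members with TCACGTG, none was called higher at 24m, where 25.3% of all tested genes were, and Atp6v0b and Atp6v0e were called lower, where 18.3% of all tested genes were. Their median log2 fold change was 0.05, that of the members without it was 0.11, and that of all 840 tested genes with it was 0.06. A match is a description of the letters in this window.

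The libraries held 63460940 to 103462414 counts in genes. Levels are given as CPM, counts scaled to a library of 1000000 with factors from trimmed means of M values (TMM). The 24m replicate 1 library stood apart, with a rank correlation over genes of 0.980 to the other 24m libraries and 0.978 to the 6m libraries, where the other 24m libraries reached 0.986 to 0.992 and 0.935 to 0.958. It was the 24m library nearest to the 6m mean for 15 of the 17 members called below. Mitochondrially encoded genes took 5.26% to 6.52% of counts at 6m and 3.18% to 3.69% at 24m. All 10 neuronal, 10 astrocytic and 10 oligodendrocytic marker genes were detected, the neuronal markers together at 4999 to 5459 CPM at 6m and 5678 to 6015 CPM at 24m. The part of these differences between libraries in the results below was not tested.

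The module did not move as a block with age. A gene was called when the Benjamini-Hochberg adjusted p of edgeR's quasi-likelihood test over all tested genes was at most 0.05 and the absolute log2 fold change (24m against 6m) was at least 0.58. Of the 52 members, 11 were called higher at 24m (21.2%), where 25.3% of all tested genes were, and 6 were called lower (11.5%), where 18.3% of all tested genes were. The remaining 35 members passed neither. By the adjusted p alone 35 members passed (67.3%), 20 of them higher and 15 lower, beside 62.6% of all tested genes. The 4 libraries of one age lay wholly above those of the other for 31 members (59.6%), beside 55.2% of all tested genes. The median log2 fold change of the members was 0.07. The shares of members called in either direction were thus not above those of all tested genes, and the other shares were near them. Differences between these shares were not tested. The members were abundant, with 6m levels between the 29.8th and the 99.8th percentile of tested genes by CPM and a median at the 90.0th. With library totals alone as the scaling, the median log2 fold change of all tested genes moved by 0.22, and 15 members were called higher (background 32.6%) and 1 lower (background 10.4%).

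**Figure D1:**
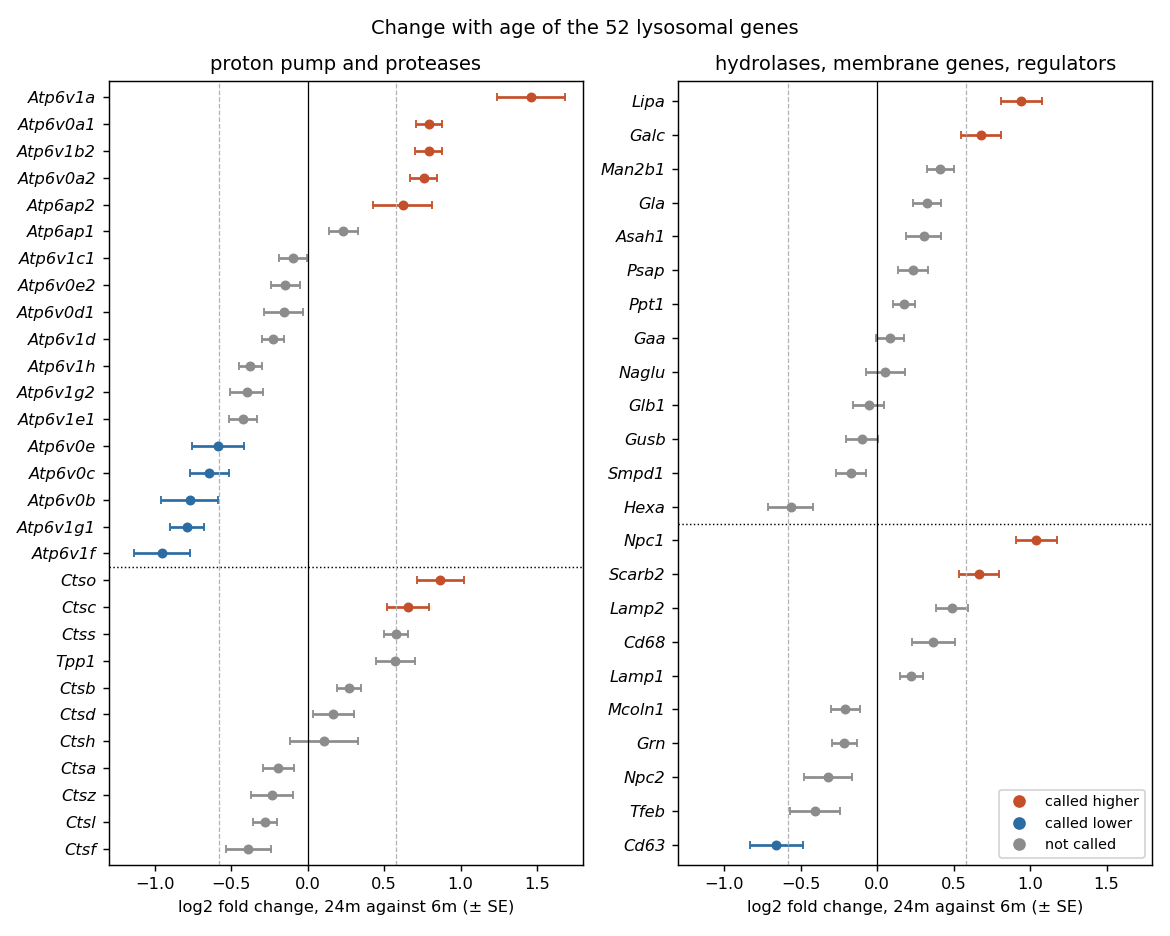
Log2 fold change (24m against 6m, ± SE, 4 libraries per age) of the 52 lysosomal genes, grouped by role with dotted lines between the groups. Dashed lines mark the fold threshold of 0.58 in either direction. The proton pump spans the widest range, from -0.95 for Atp6v1f to 1.46 for Atp6v1a, while of the other 34 genes only Cd63 was called lower.

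Proton pump genes were called in both directions. Of 18 pump genes, 5 were called higher (27.8%, beside 25.3% of all tested genes) and 5 lower (27.8%, beside 18.3%), so the share called higher was near the background. Those called higher were the catalytic subunit Atp6v1a, its partner Atp6v1b2, the membrane subunits Atp6v0a1 and Atp6v0a2, and the accessory subunit Atp6ap2. Those called lower all encode small subunits, namely Atp6v1f, Atp6v1g1, Atp6v0b, Atp6v0c and Atp6v0e. The other 8 were not called.

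Atp6v1a (chr16:43887852-43960076, minus strand), the A subunit that binds and splits ATP, was counted at 47.8, 65.04, 58.6 and 47.1 CPM in the 6m libraries and 90.6, 150.1, 155 and 206 CPM in the 24m libraries. Every 24m library lay above every 6m library, with 24m replicate 1 the lowest of its age (log2 fold change 1.46 ± 0.22 (SE), adjusted p = 0.000478). Atp6v1b2 (chr8:69541297-69566369, plus strand), the B subunit that alternates with A in the V1 head, was counted at 467, 563, 505 and 512 CPM in the 6m libraries and 952, 838, 884 and 869 CPM in the 24m libraries. The ages did not overlap here either, and 24m replicate 1 was the highest (log2 fold change 0.79 ± 0.09 (SE), adjusted p = 0.000107). These were the only pump genes called higher in each of 21 alternative analyses, with log2 fold changes of 0.99 to 1.69 for Atp6v1a and 0.60 to 1.12 for Atp6v1b2. Levels per kilobase of canonical transcript of the partners were far apart, 11.9 ± 1.90 CPM per kb (SD, n = 4) for Atp6v1a and 181 ± 14.02 for Atp6v1b2 at 6m, although the assembled head holds them in equal number. Exons of Atp6v1a overlap exons of Naa50 and Gm61144 on the other strand, and the strand setting of the counting is not given in the sources used here.

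The a subunits anchor the pump in its membrane and form the proton path with the ring. Atp6v0a1, the form of nerve terminals, was counted at 264, 308, 285 and 299 CPM in the 6m libraries and 452, 509, 530.5 and 509.5 CPM in the 24m libraries, without overlap between the ages (log2 fold change 0.79 ± 0.09 (SE), adjusted p = 9.56e-05). Atp6v0a2, the form of the Golgi and endosomes, was counted at 29.2, 31.99, 30.97 and 30.8 CPM in the 6m libraries and 46.01, 50.9, 55.4 and 55.8 CPM in the 24m libraries, again without overlap (log2 fold change 0.76 ± 0.09 (SE), adjusted p = 0.000123). Atp6ap2, the accessory subunit also known as the prorenin receptor, was counted at 55.1, 71.2, 62.8 and 41.5 CPM in the 6m libraries and 62.7, 94.2, 88.95 and 109 CPM in the 24m libraries. Its 24m replicate 1 fell inside the 6m range while the other three 24m libraries lay above it (log2 fold change 0.62 ± 0.19 (SE), adjusted p = 0.0183). Atp6ap2 was not called when any of 3 libraries was left out, namely 6m replicate 1 (0.60, adjusted p = 0.0503), 6m replicate 4 (0.49) or 24m replicate 4 (0.51).

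Among the small subunits, Atp6v1f (chr6:29467717-29470513, plus strand), a part of the central rotor shaft, fell most. It was counted at 364, 322, 329 and 398 CPM in the 6m libraries and 258, 173, 166 and 133 CPM in the 24m libraries. All 24m libraries lay below all 6m libraries, and 24m replicate 1 was the closest to them (log2 fold change -0.95 ± 0.18 (SE), adjusted p = 0.00162). Atp6v1g1, a subunit of the peripheral stalks that hold the head still, was counted at 217, 200.5, 201 and 217 CPM in the 6m libraries and 147, 115, 117 and 104 CPM in the 24m libraries, with no overlap (log2 fold change -0.79 ± 0.11 (SE), adjusted p = 0.000302). Atp6v0b, the c″ proteolipid of the proton-carrying ring, was counted at 737, 649, 676 and 788 CPM in the 6m libraries and 594, 390.0, 380.1 and 304 CPM in the 24m libraries, with no overlap (log2 fold change -0.77 ± 0.18 (SE), adjusted p = 0.00485). The bulk of the ring is made of the c subunit, encoded by Atp6v0c, which was the most abundant pump transcript. It was counted at 1804, 1731, 1688 and 1903 CPM in the 6m libraries and 1422, 1128, 1076 and 940.5 CPM in the 24m libraries, with no overlap (log2 fold change -0.64 ± 0.13 (SE), adjusted p = 0.00191). Atp6v0e, a small membrane subunit of V0, was counted at 33.8, 31.7, 30.1 and 41.8 CPM in the 6m libraries and 30.6, 21.9, 21.2 and 17.7 CPM in the 24m libraries. Here 24m replicate 1 lay inside the 6m range (log2 fold change -0.59 ± 0.17 (SE), adjusted p = 0.0131). The lowest 24m library of all 5 genes was replicate 4. Without it Atp6v0b, Atp6v1f and Atp6v1g1 were called, Atp6v0c was just short of the fold threshold at -0.56, and Atp6v0e stood at -0.48. Atp6v0e, reported close to the threshold, also missed it without 6m replicate 4 (-0.48), without 24m replicate 2 (-0.57) or 3 (-0.55), and in the third decimal after thinning to the smallest library (-0.579) and without the low-count filter (-0.578). Pseudogenes named for Atp6v0c are annotated in the genome, and reads shared with them may be split or dropped.

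The 8 uncalled pump genes lay between -0.43 and 0.23. Below the adjusted p threshold but short of the fold threshold were Atp6v1e1 and Atp6v1g2, both of the peripheral stalks, at -0.42 (adjusted p = 0.00284) and -0.40 (adjusted p = 0.00952), the regulatory subunit Atp6v1h at -0.37 (adjusted p = 0.00213) and the rotor subunit Atp6v1d at -0.23 (adjusted p = 0.0187). All 4 were lower at 24m without overlap. Atp6v0d1, which couples the rotor to the ring, was at -0.16, Atp6v0e2 at -0.15, Atp6v1c1, a subunit at the joint between the sectors, at -0.10, and the accessory Atp6ap1 at 0.23 (adjusted p from 0.0504 to 0.389). For Atp6v0d1, Atp6v0e2 and Atp6v1c1 the sign turned under library totals alone, at 0.05, 0.07 and 0.13.

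**Figure D2:**
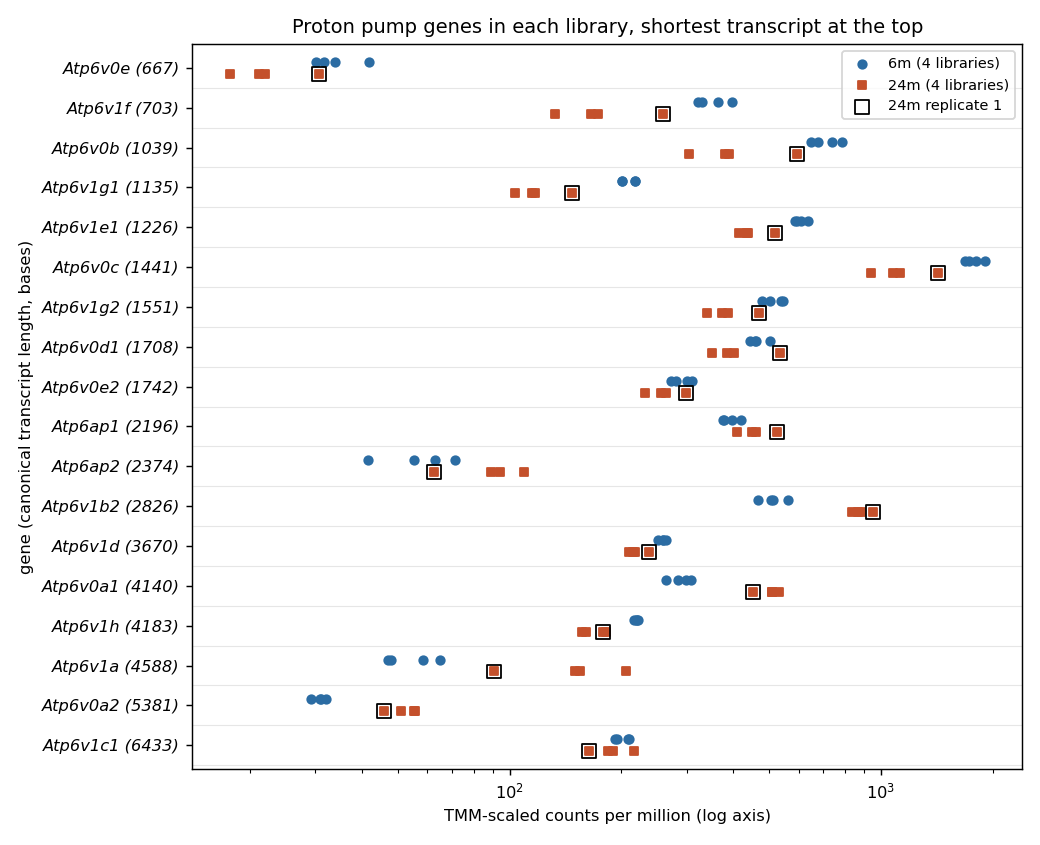
TMM-scaled CPM (log axis) of the 18 proton pump genes in each of the 4 6m libraries (circles) and 4 24m libraries (squares), with genes ordered by canonical transcript length in bases from the top. A black outline marks 24m replicate 1. The squares of the 5 genes called lower lie to the left of their circles, except for 24m replicate 1 of Atp6v0e at the top, which lies among them, and squares lie to the right for Atp6v1b2, Atp6v0a1, Atp6v1a and Atp6v0a2 lower down.

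The split of the pump went with transcript length. The 5 pump genes called lower had canonical transcripts of 667 to 1441 bases and the 5 called higher had 2374 to 5381 bases, with no overlap. The longest pump transcript, that of Atp6v1c1 at 6433 bases, was not called. Atp6v1h at 4183 bases and Atp6v1d at 3670 bases lay in the length range of the genes called higher. Both were lower at 24m without overlap, at -0.37 and -0.23, short of the fold threshold. Length went with the fold change over the whole transcriptome, where Pearson's r between the log2 fold change and log10 canonical length was 0.50 across 16680 tested genes. It was 0.71 across the 18 pump genes and 0.34 across the 34 other members, where genes share libraries and are not independent. Among the shortest of 10 bins of nearly equal numbers of tested genes, with 38 to 1266 bases, 62.6% were called lower and 4.01% higher, and among those of 4572 to 5481 bases 5.59% were called lower and 45.6% higher. The relation with length was thus present across all tested genes.

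A further fit removed the smoothed trend of each library over canonical length, an alternative added after seeing the data. In it none of the 6 members called lower was called. The small pump subunits moved to -0.07 for Atp6v1f, -0.07 for Atp6v0b, -0.11 for Atp6v0c, -0.12 for Atp6v1g1 and 0.32 for Atp6v0e, the last with the sign turned. On the other side, Atp6v1a at 1.04, Atp6v1b2 at 0.81 and Atp6ap2 at 0.81 were still called higher, while Atp6v0a1 at 0.49 and Atp6v0a2 at 0.23 were not. The median over the 52 members was 0.21 in this fit. It called 8 members higher (background 18.4%), of which 5 were among the 11, and 3 lower (background 14.2%). The other 3 called higher were Cd68 at 1.00, Ctss at 1.16 and Lamp2 at 0.91, genes with canonical transcripts of 1198 to 1778 bases. The 3 called lower were Atp6v1c1 at -0.73, Atp6v1h at -0.68 and Ctsl at -0.84, genes with canonical transcripts of 4183 to 6433 bases. The cause of the trend over length was not tested.

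**Figure D3:**
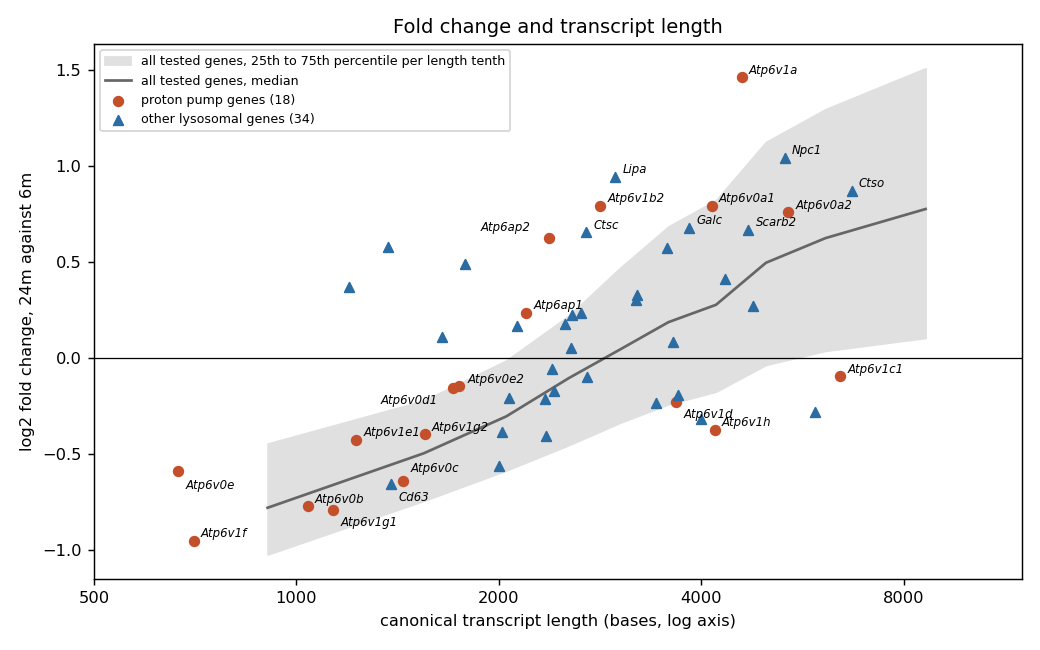
Log2 fold change (24m against 6m) against canonical transcript length in bases (log axis) for the 18 pump genes (circles) and the 34 other members (triangles). The grey line and band give the median and the 25th to 75th percentiles of all tested genes in 10 bins of length, from a median of -0.78 in the shortest bin to 0.77 in the longest, and the 5 pump genes called lower lie within the 25th to 75th percentiles of their bin, while Atp6v1a, Atp6v1b2 and Atp6ap2 lie above those of theirs.

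Proteases formed the second group. Of 11, 2 were called higher, Ctso and Ctsc (18.2%, beside 25.3% of all tested genes), none was called lower (18.3% of all tested genes), and the median of their log2 fold changes was 0.17. Ctso, a cysteine cathepsin, was counted at 6.20, 7.33, 6.37 and 5.02 CPM in the 6m libraries and 9.02, 11.5, 11.5 and 13.4 CPM in the 24m libraries, with no overlap (log2 fold change 0.87 ± 0.16 (SE), adjusted p = 0.00111). Its canonical transcript of 6690 bases is the longest of the module, and with the trend over canonical length removed it stood at 0.22. Ctsc, the dipeptidyl peptidase that activates serine proteases of immune granules, was scarce, at 2.85, 2.81, 3.38 and 2.50 CPM in the 6m libraries and 5.10, 3.97, 4.66 and 4.42 CPM in the 24m libraries, with no overlap (log2 fold change 0.65 ± 0.14 (SE), adjusted p = 0.00252). Ctss, the cathepsin of microglia and other antigen-presenting cells, was counted at 63.6, 59.7, 61.3 and 63.1 CPM in the 6m libraries and 99.6, 85.3, 96.8 and 88.2 CPM in the 24m libraries. It did not overlap between the ages, had a small error and missed the fold threshold only in the third decimal, at 0.578 ± 0.08 (SE, adjusted p = 0.000258). With the canonical length trend removed Ctss stood at 1.16 and was called.

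At the other end were Ctsf, Ctsl and Ctsz. Ctsf was counted at 177, 161, 157 and 175 CPM in the 6m libraries and 171, 123, 116 and 102 CPM in the 24m libraries, with 24m replicate 1 inside the 6m range (log2 fold change -0.39 ± 0.15 (SE), adjusted p = 0.04). Ctsl, the endopeptidase that matures other enzymes, was counted at 168, 159.9, 158 and 174 CPM in the 6m libraries and 149, 132, 133 and 129.6 CPM in the 24m libraries, with all 24m libraries below the 6m libraries (log2 fold change -0.28 ± 0.08 (SE), adjusted p = 0.00974). Ctsz, a carboxypeptidase, was counted at 123, 107, 112 and 138 CPM in the 6m libraries and 127, 99.2, 100.3 and 81.1 CPM in the 24m libraries, with overlap (log2 fold change -0.24 ± 0.14 (SE), adjusted p = 0.161). The tripeptidyl peptidase Tpp1, lost in a childhood neuronal ceroid lipofuscinosis, was at 0.57 (adjusted p = 0.00374) without overlap, just short of the fold threshold. Ctsb, at 0.27 (adjusted p = 0.0146), also separated the ages. Ctsd, the main aspartic protease of the lysosome, was at 0.17, Ctsh, an aminopeptidase, at 0.11, and Ctsa, the protective protein of the sialidase complex, at -0.19, with adjusted p from 0.131 to 0.693. Ctsh turned to -0.18 without 24m replicate 1, the library in which it was highest.

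Of the 13 glycosidases, lipid hydrolases and activators, 2 were called higher, Lipa and Galc (15.4%, beside 25.3% of all tested genes), and none lower (18.3% of all tested genes), and the median of their log2 fold changes was 0.18. Lipa (chr19:34469712-34522163, minus strand), the acid lipase that frees cholesterol and fatty acids from lipid esters, was counted at 4.63, 5.53, 5.41 and 4.67 CPM in the 6m libraries and 8.49, 9.05, 9.68 and 11.7 CPM in the 24m libraries. The ages lay apart and 24m replicate 4 was the highest (log2 fold change 0.94 ± 0.13 (SE), adjusted p = 0.000331). Lipa was called in each of the 21 alternatives (0.61 to 1.17), the third member with that property beside Atp6v1a and Atp6v1b2. Galc, which degrades the myelin lipid galactosylceramide and is lost in Krabbe disease, was counted at 8.82, 10.7, 11 and 8.50 CPM in the 6m libraries and 13.2, 15.5, 15.9 and 17.8 CPM in the 24m libraries, with no overlap (log2 fold change 0.68 ± 0.13 (SE), adjusted p = 0.00163). Galc stood at 0.11 once a trend over total exonic length was removed and at 0.44 with the canonical length trend removed, and was called in neither. Man2b1, the acidic mannosidase, was counted at 76.4, 79.02, 76.2 and 76.5 CPM in the 6m libraries and 117, 99.4, 104 and 89.3 CPM in the 24m libraries, with no overlap but below the fold threshold (log2 fold change 0.41 ± 0.09 (SE), adjusted p = 0.00312).

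Hexa, the alpha chain of beta-hexosaminidase that is lost in Tay-Sachs disease, was the lowest of this group. It was counted at 182, 159, 168 and 200.5 CPM in the 6m libraries and 156, 114, 116 and 94.1 CPM in the 24m libraries, with every 24m library below every 6m library (log2 fold change -0.56 ± 0.15 (SE), adjusted p = 0.00789). Hexa lay just short of the fold threshold and was called lower in 7 of 21 alternatives. Smpd1, the acid sphingomyelinase, was counted at 261, 246, 246 and 286 CPM in the 6m libraries and 268, 229, 224 and 202 CPM in the 24m libraries, with overlap (log2 fold change -0.17 ± 0.10 (SE), adjusted p = 0.164). Gusb, the beta-glucuronidase, was counted at 25.4, 23.9, 24.4 and 27.4 CPM in the 6m libraries and 27.9, 22.7, 23.1 and 20.6 CPM in the 24m libraries, with overlap (log2 fold change -0.10 ± 0.11 (SE), adjusted p = 0.437). The rest lay between -0.06 and 0.33. Gla, the alpha-galactosidase lost in Fabry disease, at 0.33 (adjusted p = 0.0126) and the acid ceramidase Asah1 at 0.30 (adjusted p = 0.038) passed the adjusted p alone. The sphingolipid activator precursor Psap at 0.23, the thioesterase Ppt1 at 0.18, the glucosidase Gaa at 0.08, the glucosaminidase Naglu at 0.05 and the galactosidase Glb1 at -0.06 did not, with adjusted p from 0.0548 to 0.733. Psap was the most abundant member in CPM, at 2296 to 2551 CPM at 6m and 2548 to 3229 CPM at 24m.

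Of the 8 membrane genes and 2 regulators, Npc1 and Scarb2 were called higher (20%) and Cd63 lower (10%), beside 25.3% and 18.3% of all tested genes. Npc1, the membrane protein that exports cholesterol from the lysosome, was counted at 39.3, 45.1, 44.5 and 43.9 CPM in the 6m libraries and 66.2, 86.9, 101 and 101 CPM in the 24m libraries. All 24m libraries lay above all 6m libraries, and 24m replicate 1 was the lowest of them (log2 fold change 1.04 ± 0.13 (SE), adjusted p = 0.000211). Npc1 was called in 20 of 21 alternatives, the exception being the canonical length trend, where it stood at 0.51. Scarb2, the receptor that carries glucocerebrosidase to the lysosome, was counted at 33.8, 33.9, 33.2 and 35.04 CPM in the 6m libraries and 41.4, 52.9, 55.4 and 66 CPM in the 24m libraries, with no overlap (log2 fold change 0.67 ± 0.13 (SE), adjusted p = 0.00163). Scarb2 was just short of the fold threshold without 24m replicate 4 (0.55) and was not called with the trend over canonical length (0.23), exonic length (0.49) or GC content (0.51) removed. Lamp2, a structural glycoprotein with a part in chaperone-mediated autophagy, was counted at 26.3, 26.3, 25.9 and 26.3 CPM in the 6m libraries and 30.9, 37.8, 35.3 and 43.05 CPM in the 24m libraries, with no overlap but below the fold threshold (log2 fold change 0.49 ± 0.10 (SE), adjusted p = 0.00281).

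Cd63, a tetraspanin of late endosomes and exosomes, was counted at 282, 216, 218 and 266 CPM in the 6m libraries and 214, 142, 142 and 124 CPM in the 24m libraries. The highest 24m library, replicate 1, lay just under the lowest 6m library (log2 fold change -0.66 ± 0.17 (SE), adjusted p = 0.00775). A pseudogene named for Cd63 is annotated, Cd63 was just short of the fold threshold without 24m replicate 4 (-0.56), and with the canonical length trend removed it stood at -0.11. Tfeb, the master transcription factor of the module, was counted at 32.6, 24.7, 26.4 and 34.2 CPM in the 6m libraries and 28.4, 22.6, 19.9 and 17.98 CPM in the 24m libraries, with overlap (log2 fold change -0.41 ± 0.16 (SE), adjusted p = 0.0489). Npc2, the lumenal protein that hands cholesterol to Npc1, was counted at 104, 96.9, 96.1 and 126 CPM in the 6m libraries and 113, 79.4, 78.3 and 68.1 CPM in the 24m libraries, with overlap (log2 fold change -0.32 ± 0.16 (SE), adjusted p = 0.101). Lamp1, the most abundant of these membrane genes, was counted at 351, 374, 359 and 396 CPM in the 6m libraries and 448, 424, 436 and 419.9 CPM in the 24m libraries, without overlap (log2 fold change 0.22 ± 0.07 (SE), adjusted p = 0.0246). The macrophage sialomucin Cd68 at 0.37 (adjusted p = 0.0416) and progranulin, encoded by Grn, at -0.22 (adjusted p = 0.0435) passed the adjusted p alone, and the calcium channel Mcoln1 at -0.21 did not (adjusted p = 0.0807).

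The calls were compared under other settings for the 17 called genes. In 16 of the 17 the sign was the same in each of 21 alternatives, the exception being Atp6v0e. Under library totals alone the 11 higher genes were all called and of the 6 lower genes only Atp6v1f was. Under the trend over exonic length, 5 of the 11 and 4 of the 6 were called, the latter being Atp6v0c, Atp6v0e, Atp6v1g1 and Cd63. The choice of length measure thus changed which short genes were called. Exonic GC content also went with the fold change, with Pearson's r of -0.20 across all tested genes, -0.54 across the 52 members and -0.70 across the 34 members outside the pump, and with that trend removed 7 of the 11 and 4 of the 6 were called. Of the others, Atp6ap2 stood at 0.34, Ctsc at 0.41 and Galc at 0.40, while Scarb2 at 0.51, Atp6v0c at -0.55 and Cd63 at -0.53 stayed close to the threshold. Quantile normalization with DESeq2 also called 11 members higher, of which 8 were among the 11. Ctso at 0.56, Galc at 0.42 and Ctsc at 0.33 were not called, and Ctsb at 0.62, Ctss at 0.64 and Psap at 0.72 were.

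**Figure D4:**
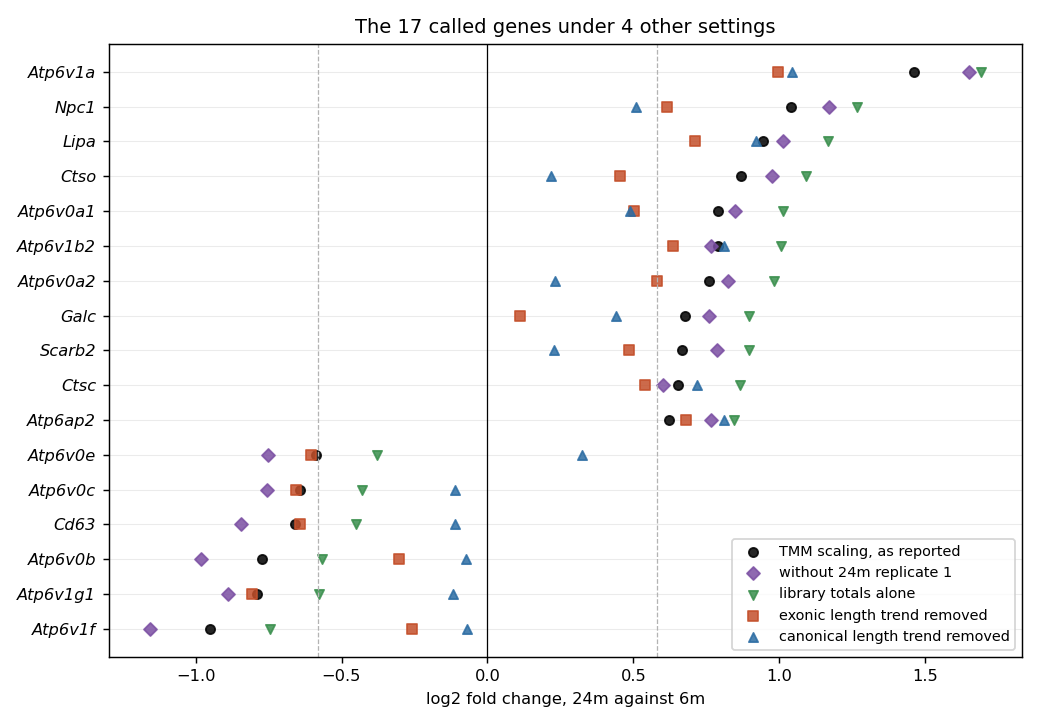
Log2 fold change (24m against 6m) of the 17 called genes as reported and under 4 other settings, with dashed lines at 0.58 in either direction. Atp6v1a, Atp6v1b2, Lipa and Atp6ap2 stay beyond the threshold in all 5, while the small pump subunits and Cd63 reach -0.12 or above once the canonical length trend is removed.

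Ratios of counts within a library compare genes without any scaling between libraries. A ratio shows unequal change and not which gene changed. Of 6 pairs reported, 3 separated the ages fully, each with p = 0.0286 by a two-sided exact permutation test of 4 against 4 libraries, the smallest p that test can give, and an adjusted p over the 6 pairs of 0.0571, above the threshold. The adjusted p over all 7 pairs tested was 0.05, a value that rests in part on the pair not reported here. Npc1 to Npc2 showed the widest shift. The ratio was 0.377, 0.465, 0.464 and 0.350 at 6m and 0.586, 1.09, 1.29 and 1.49 at 24m, a 2.57-fold difference of the geometric means. In 3 of 4 24m libraries the exporter thus had more counts than its lumenal partner, which was so in no 6m library. Npc1 has the longer transcript, of 5317 against 3992 bases, and with the canonical length trend removed the log2 fold changes were 0.51 and -0.58.

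Atp6v0e was compared with its paralog Atp6v0e2, which was counted at 271, 300.5, 280.1 and 310.2 CPM in the 6m libraries and 299, 263, 255 and 232 CPM in the 24m libraries. Their ratio was 0.125, 0.106, 0.108 and 0.135 at 6m and 0.102, 0.0834, 0.0830 and 0.0761 at 24m, or 0.729 times the 6m value. In the stalk, Atp6v1g2, the form enriched in neurons, was counted at 479, 537, 503 and 545 CPM in the 6m libraries and 468, 373, 386 and 339 CPM in the 24m libraries. The ratio of Atp6v1g1 to Atp6v1g2 was 0.454, 0.374, 0.399 and 0.399 at 6m and 0.315, 0.308, 0.304 and 0.305 at 24m, or 0.760 times the 6m value. In both pump pairs the member that lost ground has the shorter transcript, 667 against 1742 bases and 1135 against 1551 bases. With the canonical length trend removed, Atp6v0e stood at 0.32 and Atp6v0e2 at 0.26, so that the order of their log2 fold changes turned. In the same fit Atp6v1g1 stood at -0.12 and Atp6v1g2 at 0.09.

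The other 3 ratios overlapped between the ages. Atp6v0a1 to Atp6v0a2 was 9.03 to 9.71 at 6m and 9.14 to 10 at 24m (difference in mean log2 ratio 0.04, exact permutation p = 0.343). Atp6v1a to Atp6v1b2 was 0.0919 to 0.116 at 6m and 0.175 to 0.237 in 3 of the 24m libraries, and 0.0953 in 24m replicate 1, inside the 6m range (difference 0.62, exact permutation p = 0.114). Lamp1 to Lamp2 was 13.3 to 15.1 at 6m and 9.76 to 14.5 at 24m (difference -0.25, exact permutation p = 0.114). A p above the threshold does not show that these ratios were alike.

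**Figure D5:**
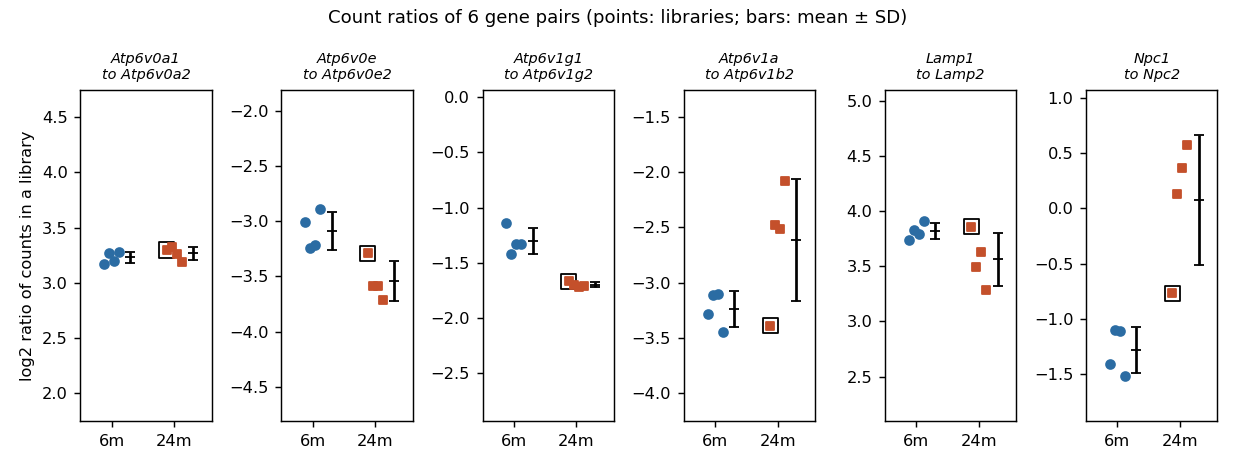
Log2 ratio of counts within each library for 6 gene pairs, 6m (circles) and 24m (squares), with the mean ± SD of 4 libraries beside them and a black outline around 24m replicate 1. All panels span 3 log2 units. The ages lie apart for Npc1 to Npc2, Atp6v0e to Atp6v0e2 and Atp6v1g1 to Atp6v1g2, and overlap for the other 3 pairs.

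The wider lysosomal pathway was described by lists of genes outside the module. Of 128 tested genes in 6 lists, 41 (32.0%) were called higher and 9 (7.03%) lower, beside a background of 25.3% and 18.3%, and their median log2 fold change was 0.19. None of 6 other tested pump subunits rose and 3 fell, the most abundant being Rnasek, a small V0 component of 640 bases (log2 fold change -0.87 ± 0.15 (SE), adjusted p = 0.0011). Tcirg1, the osteoclast a subunit, was the highest of those above 1 CPM at -0.50. With the canonical length trend removed none of the 3 was called, with Rnasek at 0.06, Atp6v1b1 at -0.53 and Atp6v1e2 at -1.055. Atp6v1b1 and Atp6v1e2 were scarce, averaging 0.57 and 0.21 CPM at 6m. Atp6v0a4, at 0.51 CPM, was called lower in that fit (-0.63). Of 12 genes for pump assembly and regulation, 6 rose and none fell. Wdr7, which binds the pump of synaptic vesicles, was the highest, at 8.90, 15.2, 12.1 and 7.10 CPM in the 6m libraries and 24.9, 59.6, 69.1 and 102 CPM in the 24m libraries (log2 fold change 2.56 ± 0.40 (SE), adjusted p = 0.000519), and Tmem199, a pump assembly factor, was the lowest at -0.42. With the canonical length trend removed, 3 of the 6 were called, Wdr7 at 1.83, Tbc1d24 at 1.67 and Oxr1 at 1.32, and 3 were not, Dmxl1 at 0.02, Dmxl2 at 0.09 and Ncoa7 at 0.38.

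Of 49 other lumenal hydrolases and cofactors, 11 rose (22.4%, near the 25.3% of all tested genes) and 1 fell (2.04%, below the 18.3%). Ids, the iduronate sulfatase lost in Hunter syndrome, was the highest (log2 fold change 2.13 ± 0.32 (SE), adjusted p = 0.000484), and the peptidase Dpp7 was the lowest (log2 fold change -0.74 ± 0.13 (SE), adjusted p = 0.00104). With the canonical length trend removed Ids stood at 1.63 and Dpp7 at -0.32, and 12 genes of this list were called higher and none lower. Of 36 tested other membrane proteins, 14 rose (38.9%) and 1 fell (2.78%), with the nucleoside transporter Slc29a3 highest (log2 fold change 2.98 ± 0.31 (SE), adjusted p = 7.35e-05) and Tmem192 lowest (log2 fold change -0.76 ± 0.18 (SE), adjusted p = 0.00446), while Lamp3 had no count in any library. With the canonical length trend removed 10 of these membrane genes were called higher (background 18.4%) and 3 lower (background 14.2%). Of 9 genes for enzyme sorting 4 rose and none fell, and with the canonical length trend removed only Sort1 of the 4 was called, at 1.66, beside 0.48 for Gnptab, 0.34 for Gga3 and 0.22 for Igf2r. Sort1, the sorting receptor sortilin, was counted at 34.4, 41.2, 39 and 35.5 CPM in the 6m libraries and 126, 187, 212 and 241 CPM in the 24m libraries (log2 fold change 2.35 ± 0.18 (SE), adjusted p = 2.42e-05), and Gnptg, a subunit of the enzyme that makes the mannose phosphate tag, was the lowest at -0.44. Of 16 genes for nutrient signalling and the MiT/TFE factors, 6 rose and 4 fell. Fnip1, a partner of folliculin, was the highest (log2 fold change 2.46 ± 0.32 (SE), adjusted p = 0.000235), and the 4 that fell were Ragulator subunits, Lamtor1, Lamtor2, Lamtor4 and Lamtor5, with Lamtor2 the lowest (log2 fold change -1.22 ± 0.14 (SE), adjusted p = 0.000136). These 4 have canonical transcripts of 668 to 1119 bases, and with the canonical length trend removed none of them was called, with Lamtor4 the lowest at -0.37. Among the relatives of Tfeb, Mitf was scarce and called higher at 1.82 (adjusted p = 0.000792), Tfe3 was at 0.45 (adjusted p = 0.00157) and Tfec did not pass the low-count filter.

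Several members are known to be rich in microglia, so the marker lists are given beside them. The shares of a list called are to be read beside the 25.3% of all tested genes called higher and the 18.3% called lower. Of 16 microglial markers, 15 were matched in the table, and 4 of these (26.7%) were called higher and none lower. The median of their log2 fold changes was 0.08, with a summed level of 634.0 to 717 CPM at 6m and 558 to 914 CPM at 24m, and with -0.08 as the median without 24m replicate 1. With the canonical length trend removed the median was 0.56, and 7 of the 15 were called higher and 1 lower, beside background shares of 18.4% and 14.2%. Among the higher were C1qa at 0.65, Trem2 at 0.69 and Tyrobp at 0.68, and the lower one was Olfml3 at -0.71. Those not called included C1qb at 0.08 and Aif1 at -0.49. Of 10 genes of disease-associated microglia, 8 (80%) were higher and none lower, with a median of 1.12 (0.90 with the canonical length trend removed) and a summed level of 73.5 to 78.7 CPM at 6m and 127 to 147 CPM at 24m. Of 7 border macrophage markers 2 (28.6%) were higher and 2 lower, with a summed level of 6.602 to 7.697 CPM at 6m and 4.82 to 6.92 CPM at 24m. Of 10 astrocyte markers 7 (70%) were higher and 1 (10%) lower, or 4 and 1 with the canonical length trend removed, where their median moved from 0.97 to 0.40, with a summed level of 3001 to 3931 CPM at 6m and 3015 to 3979 CPM at 24m. Among 10 oligodendrocyte markers 1 (10%) was higher and none lower, at 3481 to 4344 CPM and 3743 to 4351 CPM. Of 10 neuronal markers 3 (30%) were higher and 1 (10%) lower, and of 6 precursor markers 2 (33.3%) were higher and 1 (16.7%) lower, at 172 to 217 CPM and 204 to 247 CPM.

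The summed levels of the vessel and blood lists were lower at 24m without overlap between the ages, and the vessel sums rest on a few abundant transcripts. Of 10 endothelial markers 2 (20%) were higher and 3 (30%) lower, or none and 1 with the canonical length trend removed, at 88.3 to 127 CPM at 6m and 52.3 to 82.6 CPM at 24m. The most abundant, Ly6c1 and Cldn5, averaged 45.5 and 31.7 CPM at 6m and were called lower (-1.26 and -1.06), while Flt1 and Kdr were called higher (1.25 and 1.12). Of 8 pericyte and smooth muscle markers 2 (25%) were higher and 3 (37.5%) lower, at 177 to 239 CPM and 121 to 159 CPM. Vtn averaged 138 CPM at 6m and was not called (-0.51), and Abcc9 and Pdgfrb were called higher (2.14 and 0.97). All 5 blood genes were lower, at 5426 to 7605 CPM and 1242 to 4156 CPM. Of 6 choroid plexus markers Kl and Clic6 were called higher and none lower, at 1781 to 3206 CPM and 826 to 2259 CPM in sum. That sum is mostly Ttr, the transthyretin transcript, which averaged 2452 CPM at 6m and 1416 CPM at 24m and was not called (log2 fold change -0.79 ± 0.33 (SE), adjusted p = 0.0598). No marker of any list was at 0 in all libraries. The part of these cell types in the changes of Ctss, Ctsc, Lipa and the other members was not tested. Exons of 31 of the 52 members, 11 of the 17 called ones among them, overlap exons of a gene on the other strand, and 4 overlap one on the same strand, and the effect of these overlaps on the counts was not tested.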

How the data were processed

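RNA from brain hemispheres of 4 male mice aged 6 months and 4 aged 24 months was sequenced. The authors trimmed reads with Trim Galore 0.4.11, aligned them to GRCm39 with HISAT2 2.1.0 (versions per the submitters' processing notes) and made the deposited gene counts with featureCounts. Strand and multimapping settings are not given in the sources used here. The deposited counts were used unnormalized, with 63460940 to 103462414 counts per library. A gene was tested if at least 4 libraries held over 5 counts of it (16730 of 22430 listed, of which 149, holding 0.312% of counts, had no match in the annotation and were kept in the fit).

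The fit used edgeR 4.0.16 in R 4.3.3, with TMM factors, the quasi-likelihood test and age as the only term, and Benjamini-Hochberg adjustment over all tested genes. The p-values of this fit set the difference between the ages against the spread among animals of the same age, in these 8 animals. The common biological coefficient of variation was 0.184. Transcript lengths, GC content and promoter windows came from the GENCODE annotation and genome of GRCm39. Count ratios used exact permutation tests (70 assignments, scipy 1.17.1) with adjustment over 7 pairs, of which 1 is not reported here. Scripts were tested on simulated data.

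The members and all lists were chosen with earlier results of these data known. All members are accounted for. All libraries are given for the 3 largest and 3 smallest changes in each of 4 role groups, for the genes of the ratios and for the other called genes. Of each pathway list the largest and smallest log2 fold change among genes averaging at least 1 CPM is given, with all libraries only for Wdr7 and Sort1. The other Ragulator subunits, Mitf, Tfe3, Tfec, Lamp3, Atp6v1b1, Atp6v1e2 and Atp6v0a4 were named with their values in view. So were the other assembly and sorting genes called and the single marker genes.

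Other scalings (library totals, DESeq2 size factors, upper quartile), other tests (DESeq2 1.42.0, quantile-normalized counts with DESeq2, limma-voom 3.58.1), other filters, adjusted p alone, a replicate block, thinning to the smallest library, removal of trends over exonic length, GC content and canonical length (span 0.3), and each library left out were tried as alternatives. Replicate numbers did not pair the samples.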

Additional observations from a re-analysis of the deposited data

Results flagged for a closer look

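Each member was checked within each age, and each ratio likewise, for a library far from the other 3. Of 118 such checks, 4 found one, where chance alone is expected to mark about 5.0%. Gaa in 24m replicate 1 was 850.3 CPM, beside 739.8 to 754 CPM in the other 24m libraries, and the gap took 0.859 of the range on the log2 scale. Man2b1 in 6m replicate 2 was 79.0 CPM, beside 76.2 to 76.5 CPM (0.881 of the range), Lamp2 in 6m replicate 3 was 25.9 CPM, beside 26.3 CPM in the rest (0.854), and Mcoln1 in 6m replicate 4 was 118.9 CPM, beside 105 to 107 CPM (0.875). None of these 4 genes was called.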

How the results depend on the processing

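Of 1092 fold changes of members under the alternatives, 981 kept direction and call, 48 lost the call, 33 gained it and 30 reversed. Atp6v1a, Atp6v1b2 and Lipa were called throughout. Members called higher, 11 as reported, numbered 6 with the exonic length trend removed, 7 with the GC trend removed and 20 by adjusted p alone, and the 11 under quantile normalization shared 8 with those reported. Members called lower, 6 as reported, numbered 1 under library totals, 3 under quantile normalization, 3 with the canonical length trend removed, 15 by adjusted p alone and 3 to 7 when 1 library was left out. Pump genes called higher, 5 as reported, numbered 3 with either length trend removed. Pump genes called lower, also 5, numbered 1 under library totals, 3 under quantile normalization, 2 with the canonical length trend removed, 9 by adjusted p alone and 3 to 5 with 1 library left out. Other members called higher, 6 as reported, numbered 10 under library totals, 3 with the exonic length or GC trend removed and 15 by adjusted p alone. Other members called lower, 1 as reported, numbered 0 under library totals, quantile normalization or GC removal, 2 under upper-quartile factors, limma-voom or the replicate block, 3 with the exonic length trend removed, 6 by adjusted p alone and 0 to 2 with 1 library left out. 24m replicate 4 gave the lowest of these counts.

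Same-numbered libraries deviated together with correlations from -0.35 to 0.27, so the numbers were not taken as pairs, and the replicate block called 11 members higher and 7 lower. The 3 separating ratios kept their direction in each alternative. Their adjusted p over the 7 pairs tested was 0.05 with a prior count of 2 and 0.0667 to 0.219 in the others. Under the paired sign-flip of the replicate block the smallest possible p is 0.125, and with 1 library left out 0.0571. Npc1 to Npc2 differed by 1.36 in log2 under the block, 1.35 after thinning and 1.19 to 1.64 with 1 library left out. The corresponding values were -0.46, -0.44 and -0.54 to -0.39 for Atp6v0e to Atp6v0e2, and -0.40, -0.40 and -0.43 to -0.34 for Atp6v1g1 to Atp6v1g2.

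Reversed log2 fold changes under library totals were 0.054 for Atp6v0d1, 0.067 for Atp6v0e2, 0.13 for Atp6v1c1, 0.022 for Ctsa, 0.16 for Glb1, 0.11 for Gusb, 0.045 for Smpd1, 0.0051 for Mcoln1 and 0.0038 for Grn. Under quantile normalization they were 0.16 for Atp6v0d1, 0.020 for Atp6v0e2, 0.055 for Atp6v1c1, -0.075 for Ctsh and -0.058 for Naglu. With the exonic length trend removed they were -0.25 for Gaa, -0.12 for Naglu, -0.073 for Ppt1 and 0.044 for Smpd1, and with the GC trend removed -0.026 for Ppt1. With the canonical length trend removed they were 0.26 for Atp6v0d1, 0.32 for Atp6v0e, 0.26 for Atp6v0e2, 0.21 for Atp6v1e1, 0.087 for Atp6v1g2, -0.16 for Ctsb, -0.11 for Gaa, 0.11 for Glb1 and 0.072 for Mcoln1. With 1 library left out, Ctsh ranged from -0.18 (without 24m replicate 1) to 0.24 and Naglu from -0.071 (without 24m replicate 1) to 0.14 (the highest of both without 24m replicate 4). Of these only Atp6v0e was called as reported, and the causes were not tested.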
